A study of Rattus norvegicus with 9 samples.

Results

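The EGF family genes described here are 10 of the 19919 genes measured, namely the ligands Ereg, Areg, Hbegf, Btc, Tgfa and Nrg1, the receptors Egfr, Erbb2 and Erbb3, and the receptor inhibitor Errfi1. They were chosen by gene symbol, and each symbol matched 1 gene. RNA-Seq was performed on cardiosphere-derived cells (CDCs), which are heart cells that grow out of explanted tissue and gather into spheroids. The rat cells were labelled wild type, and the study's methods name the left ventricular septum of male Sprague Dawley rats aged 4 weeks as their source. All cells were cultured for 3 days on 1 of 3 substrates, with 3 libraries per group. The PS group grew on polystyrene, the ULA group on an ultralow attachment surface, and the OPC group on a hydroxypropyl cellulose ester that forms a liquid crystal. The libraries are labelled biological replicates, but the sources used here do not say whether they came from separate animals, so a p-value measures only the spread between these cultures.

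Ligands of the EGF family are made as membrane-anchored precursors and are released by cell surface proteases, chiefly of the ADAM family. They bind receptors of the ErbB group, which pair up on binding and pass the signal to the ERK and AKT pathways. In the heart, neuregulin from non-muscle cells acts on cardiomyocytes, and HB-EGF is needed for normal valves and heart muscle in the mouse. The pathway also limits itself, because ERK activity induces Errfi1, whose protein binds the kinase domain of the EGF receptor and blocks it.

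Values were FPKM, which is reads scaled to the exonic length of the gene and to the depth of the library, and were deposited for all 9 libraries. Reads behind each value were recovered from the steps between low values, which put the depth that the values are scaled to at 12740000 to 17220000 reads per library. The tested genes with recovered reads held 73.1 to 75.9% of that depth. The markers of mesenchymal and cardiac fibroblast-like cells were at a mean of 1 FPKM or more over the 9 libraries for 9 of 9 genes, with summed levels of 6789 to 7215 FPKM in the PS libraries, 4251 to 4704 in the ULA libraries and 4760 to 4858 in the OPC libraries. Col1a1 carried these sums (means 5833, 3320 and 3756 FPKM), and other markers of the list had higher means in ULA than in PS, namely Nt5e (84.6 against 9.24 FPKM), Dcn (108 against 9.38), Pdgfra (68.5 against 16.7), Eng (61.2 against 40.3) and Pdgfrb (274 against 258). Thy1 (20.9 in ULA against 137 in PS), Col1a2 (489 against 630) and Tcf21 (1.42 against 1.99) had lower means in ULA, as Col1a1 did. Cardiomyocyte markers reached that level for 0 of 6 genes and summed to 2.45 to 3.68 FPKM in the PS libraries, mostly Actn2 and Tnnt2, to 0.355 to 1.07 in the ULA libraries and to 0.279 to 0.613 in the OPC libraries, with Myh6 and Myh7 at most at 0.0405 and 0.0230. The 3 endothelial markers in the table summed to at most 0.128 FPKM. Of 5 macrophage and leukocyte markers only Cd14 and Cd68 reached it, and their list summed to 20.3 to 22.5 FPKM in the PS libraries, 73.6 to 77.8 in the ULA libraries and 43.5 to 49.3 in the OPC libraries, while Ptprc, which defines leukocytes, was at most at 0.0442 FPKM. Schwann cell markers, mainly S100b, summed to 4.73 to 5.57, 21.8 to 22.6 and 18.2 to 20.4 FPKM in the same order, with Ngfr at most at 0.0471. Sox10 and Foxd3 of this list matched no gene measured. Epicardial and mesothelial markers, mainly Tbx18, reached that level for 4 of 6 genes and summed to 15.5 to 17.7, 19.6 to 20.7 and 19.5 to 20.6 FPKM. Epithelial markers reached it for 1 of 5 genes and summed to 1.65 to 2.66, 1.28 to 1.75 and 1.10 to 1.16 FPKM. The part of these cell type markers in the values below was not tested. In bulk RNA, fewer cells of a type and less RNA per cell cannot be told apart.

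The largest differences among the members tested were those of ligands. Tgfa, Hbegf and Nrg1 were at their highest level in the PS group and fell 6.56-fold to 18.9-fold from PS to ULA by the ratio of means. Ereg was at its highest level in the OPC group, 3.42-fold over ULA and 1.54-fold over PS. Egfr and Errfi1 had their highest level in the ULA group, where the summed ligand level was lowest. Genes were tested with limma on log2(FPKM + 1), with p-values adjusted by Benjamini-Hochberg over the 12513 genes that had at least 1 FPKM in at least 3 libraries. Of the 10 members, 8 passed this filter, and Btc and Erbb3 did not.

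**Figure D1:**
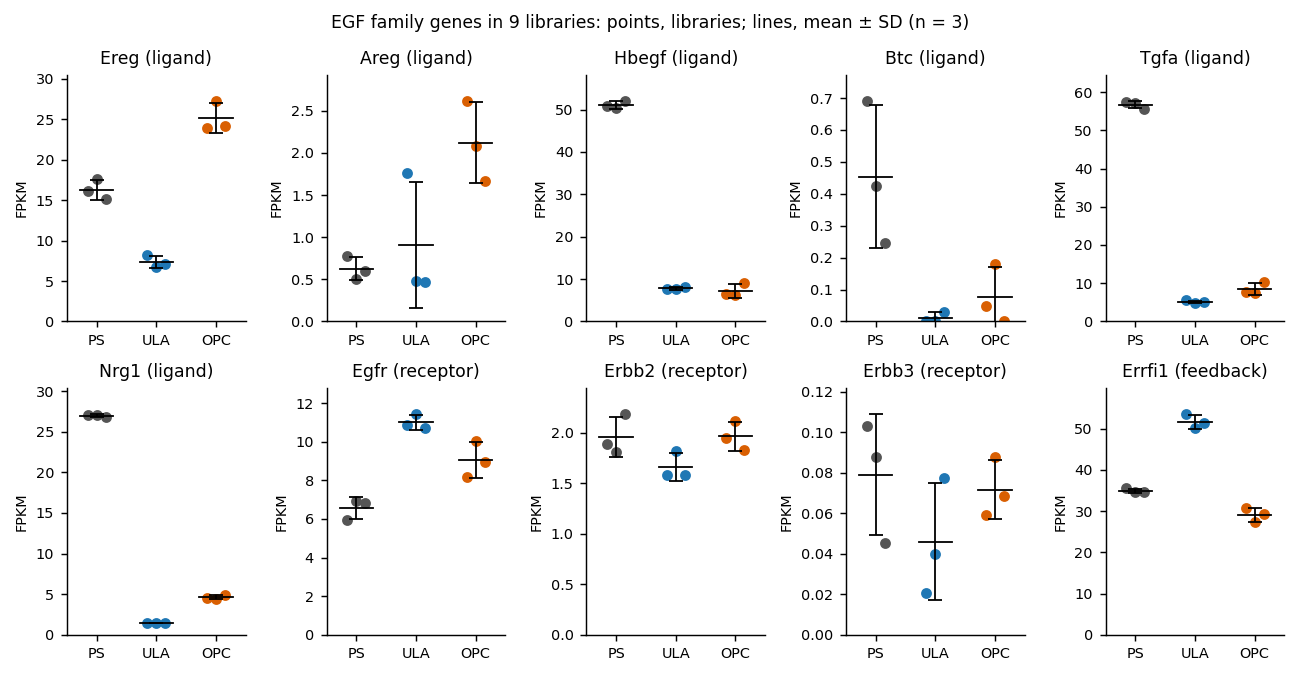
FPKM (vertical axes, each from 0) of the 10 EGF family genes on the PS, ULA and OPC substrates, with a point per library and lines at the mean ± SD of 3 libraries, the SD bars of Btc being truncated at 0. The PS points of Hbegf, Tgfa and Nrg1 lie far above the others (means 51.1, 56.7 and 27.0 FPKM), the OPC points of Ereg lie highest (mean 25.1 FPKM) and the ULA points of Errfi1 lie highest (mean 51.6 FPKM).

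Ereg encodes epiregulin, a ligand of the EGF receptor, and lies on chr14:18576355-18591394 of the rn6 genome, minus strand. Its level was 16.1, 17.6 and 15.2 FPKM in the PS libraries, 8.24, 6.73 and 7.08 in the ULA libraries and 23.9, 27.3 and 24.2 in the OPC libraries. The 3 groups did not overlap, with ULA lowest, PS between and OPC highest. Group means were 16.3 ± 1.21, 7.35 ± 0.787 and 25.1 ± 1.85 FPKM (mean ± SD). From ULA to OPC, Ereg rose by 1.65 on the log2 scale (SE 0.082, limma adjusted p = 4.37e-07), a change exceeded in size by 1.14% of the genes tested. It fell by 1.05 from PS to ULA (limma adjusted p = 2.31e-06) and was 0.60 higher in OPC than in PS (limma adjusted p = 0.000151). Each Ereg value rested on 180 to 858 reads.

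Areg encodes amphiregulin, another ligand of the EGF receptor, and lies next to Ereg at chr14:18521930-18531179, minus strand. Its level was 0.778, 0.509 and 0.593 FPKM in the PS libraries, 1.77, 0.482 and 0.470 in the ULA libraries and 2.62, 2.09 and 1.66 in the OPC libraries. These values rest on few reads, namely 13, 10 and 10, then 33, 7 and 7, then 51, 32 and 28. ULA replicate 1 stood apart from the other ULA libraries and reached into the OPC range, so these groups overlapped. The OPC libraries were all above the PS libraries. Areg passed the filter only through the 3 OPC libraries and ULA replicate 1, so it could be tested only because it was high there. It was 0.77 higher in OPC than in ULA on the log2 scale (SE 0.24, limma adjusted p = 0.0223) and 0.93 higher in OPC than in PS (limma adjusted p = 0.00686). The call against ULA was lost (adjusted p from 0.0524 to 0.0785) without ULA replicate 2, ULA replicate 3, OPC replicate 1 or OPC replicate 2, whereas without ULA replicate 1 the difference was 1.07. Areg did not differ past the threshold between ULA and PS (log2FC 0.17, limma adjusted p = 0.559), and this difference turned to -0.14 without ULA replicate 1. Adding 1 FPKM shrinks a fold at such low levels, and on the recovered reads limma-voom put the difference between OPC and ULA at 1.38.

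The promoter of Areg is shown because it alone of the 7 members with a RefSeq promoter entry held the full cyclic AMP response element TGACGTCA, a site bound by factors of the CREB and ATF group. The 150 bases before the annotated start run along chr14:17265642-17265791 of GRCr8, minus strand, and are numbered back from that start. Capitals mark, from left to right, the response element at 91 to 84 bases before the start, the GC box GGGCGG at 82 to 77 and the TATA box TATAAA at 61 to 56.
Areg: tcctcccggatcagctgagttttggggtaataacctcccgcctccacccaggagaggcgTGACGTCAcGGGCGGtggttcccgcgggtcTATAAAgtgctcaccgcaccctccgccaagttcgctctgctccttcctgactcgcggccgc
The response element occurred on either strand in 1.6% of 33469 promoters of 250 bases, the TATA box letters in 12.9% and the GC box in 30.5%. The GC box was in 6 of the 7 member promoters, and the AP-1 letters TGANTCA, in 6.3% of all promoters, were in 0 of them. A match gives letters only, the marked motifs do not overlap each other, and binding was not measured here.

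Hbegf encodes heparin-binding EGF-like growth factor, a ligand of the EGF receptor and of ErbB4, and lies on chr18:29329764-29340403, minus strand. Its level was 50.7, 50.5 and 52.0 FPKM in the PS libraries, 7.55, 7.59 and 8.21 in the ULA libraries and 6.42, 6.22 and 9.13 in the OPC libraries. All PS libraries were far above the rest, and the ULA and OPC libraries overlapped. Hbegf fell by 2.57 on the log2 scale from PS to ULA (SE 0.11, limma adjusted p = 3.49e-08), or 6.56-fold, and fell by 2.67 from PS to OPC (limma adjusted p = 3.84e-08), or 7.04-fold. Between OPC and ULA the difference was -0.11 (95% interval -0.36 to 0.15, limma adjusted p = 0.457). OPC replicate 3 was the highest of its group, and without it Hbegf passed the threshold as lower in OPC (log2FC -0.26, limma adjusted p = 0.00267).

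Tgfa encodes transforming growth factor alpha, which binds the EGF receptor, and lies on chr4:117962319-118046344, plus strand. Its level was 57.3, 57.2 and 55.6 FPKM in the PS libraries, 5.52, 4.93 and 4.97 in the ULA libraries and 7.63, 7.40 and 10.3 in the OPC libraries. The groups did not overlap, with PS highest by far and ULA lowest. Tgfa fell by 3.23 on the log2 scale from PS to ULA (SE 0.10, limma adjusted p = 4.35e-09), an 11.0-fold difference of means. It fell by 2.62 from PS to OPC (limma adjusted p = 2.55e-08) and was 0.61 higher in OPC than in ULA (limma adjusted p = 0.000849), a 1.65-fold difference.

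Nrg1 encodes neuregulin 1, the ligand of ErbB3 and ErbB4, and lies on chr16:63837216-64057434, plus strand. Its level was 27.0, 27.1 and 26.8 FPKM in the PS libraries, 1.41, 1.44 and 1.43 in the ULA libraries and 4.59, 4.45 and 4.88 in the OPC libraries. Libraries of a group lay close together and the groups stood well apart, in the order PS, OPC, ULA. Nrg1 had the largest change of the members tested between PS and ULA, where it fell by 3.53 on the log2 scale (SE 0.05, limma adjusted p = 7.78e-11) and an 18.9-fold difference of means. It was exceeded in size there by 0.775% of the genes tested. Nrg1 fell by 2.31 from PS to OPC (limma adjusted p = 9.3e-10) and was 1.22 higher in OPC than in ULA (limma adjusted p = 1.67e-07), or 3.25-fold by the means.

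Btc encodes betacellulin, which binds the EGF receptor and ErbB4, and lies on chr14:18231860-18272484, plus strand. Its level was 0.691, 0.423 and 0.247 FPKM in the PS libraries, 0, 0 and 0.0310 in the ULA libraries and 0.0474, 0.181 and 0 in the OPC libraries. These were 52 reads on PS, 1 on ULA and 8 on OPC. A library with 0 reads allows a level of up to 0.0742 to 0.0954 FPKM, the value of 3 reads. Each PS library was above each ULA and OPC library, and the ULA and OPC libraries overlapped. The rate of Btc reads in PS was 47.0 times that in ULA (95% exact interval 8.07 to 1890) and 6.31 times that in OPC (2.98 to 15.4). These intervals cover counting error only, and PCR copies are not independent molecules. With no filter on low values, limma called Btc lower in ULA (adjusted p = 0.00408) and in OPC (adjusted p = 0.0119) than in PS.

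The 6 ligands together reached 152 ± 1.47 FPKM on PS, 22.6 ± 1.69 on ULA and 47.7 ± 2.51 on OPC (mean ± SD of 3 libraries). FPKM is scaled to a single exonic length per gene, and the ligands were set beside each other on this scale. Which isoforms were in use was not tested, so the shares are approximate. Tgfa held 37.3% of the PS sum, Hbegf 33.6%, Nrg1 17.7% and Ereg 10.7%. In the OPC group Ereg held 52.8 ± 4.54% of the sum, with 52.9, 57.3 and 48.2% in the 3 libraries, and was the most abundant ligand in each. Hbegf and Ereg held similar parts of the ULA sum, 34.6 ± 3.27% and 32.5 ± 1.04%, and in ULA replicate 1 Ereg was above Hbegf. Areg and Btc added at most 7.22% and 0.453% in any library. Shares of a sum are not independent, and the fall of 3 ligands raises the share of Ereg even where its level fell, as between PS and ULA.

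**Figure D2:**
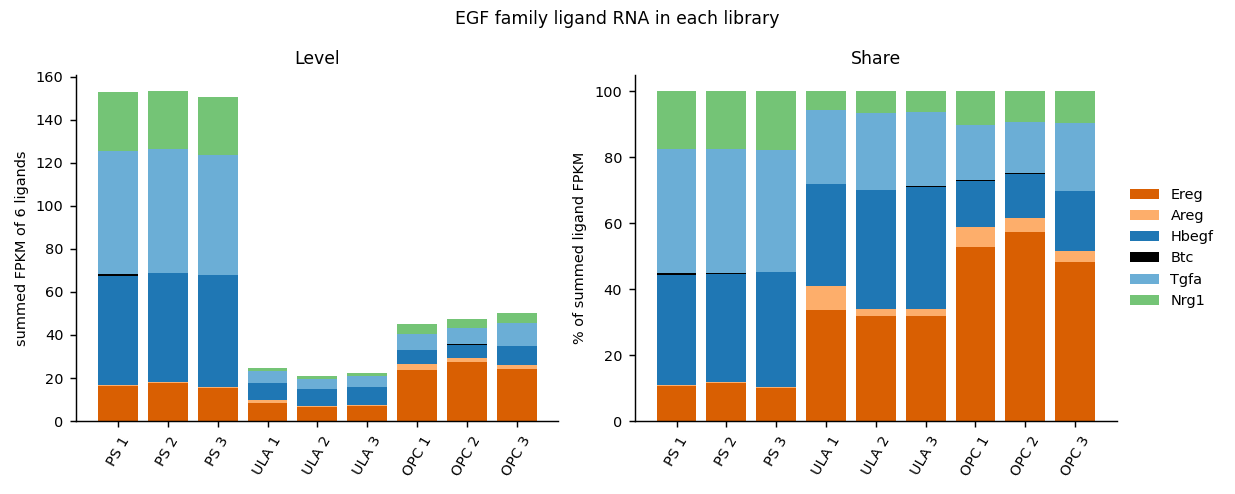
Stacked bars give the summed FPKM of the 6 EGF family ligands (left, from 0) and the percent of that sum held by each ligand (right) in each of the 9 libraries. The sums are near 152 FPKM in the PS libraries, 22.6 in the ULA libraries and 47.7 in the OPC libraries, and Ereg takes 48.2 to 57.3% of the sum in the OPC libraries against 10.1 to 11.5% in the PS libraries.

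Egfr, the receptor for most of these ligands, lies on chr14:99919485-100098796, plus strand. Its level was 5.92, 6.93 and 6.85 FPKM in the PS libraries, 10.9, 11.4 and 10.7 in the ULA libraries and 8.15, 10.03 and 8.95 in the OPC libraries. The groups did not overlap, with ULA highest and PS lowest, though the gap between ULA and OPC was narrow. Egfr rose by 0.67 on the log2 scale from PS to ULA (SE 0.08, limma adjusted p = 4.98e-05), a 1.68-fold difference, and by 0.41 from PS to OPC (limma adjusted p = 0.00154), a 1.38-fold difference. It was lower in OPC than in ULA by a log2FC of -0.26 (limma adjusted p = 0.0212), a call that was lost without ULA replicate 2 (adjusted p = 0.0653), OPC replicate 1 (0.0766) or OPC replicate 3 (0.0512). The summed level of the 6 ligands was 23.3 ± 2.16 times that of Egfr on PS, 2.06 ± 0.198 times on ULA and 5.30 ± 0.482 times on OPC. The sum includes Nrg1, a ligand of ErbB3 and ErbB4, which held 17.7% of it on PS, 6.33% on ULA and 9.74% on OPC. The ratio is thus not limited to ligands of Egfr.

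Erbb2, the receptor that binds no ligand itself and pairs with the others, lies on chr10:86367596-86391728, plus strand, where it overlaps a small RNA gene. Its level was 1.88, 1.81 and 2.18 FPKM in the PS libraries, 1.58, 1.82 and 1.58 in the ULA libraries and 1.95, 2.12 and 1.83 in the OPC libraries. The sources used here do not state whether counting was strand-specific. The ULA libraries were mostly the lowest but overlapped with PS, and PS and OPC overlapped, whereas each OPC library was above each ULA library. No comparison passed the threshold in limma, with an adjusted p of 0.182 for OPC vs ULA (log2FC 0.15, 95% interval -0.05 to 0.36), 0.167 for ULA vs PS and 0.978 for OPC vs PS (interval -0.20 to 0.21).

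Erbb3, a receptor of neuregulins with a weak kinase, lies on chr7:2989340-3010350, minus strand. It was at 0.0456 to 0.103 FPKM in the PS libraries, 0.0206 to 0.0774 in the ULA libraries and 0.0592 to 0.0877 in the OPC libraries, or 22, 11 and 19 reads per group. All groups overlapped. The interval of each rate ratio included 1, the widest ratio being 1.81 for PS over ULA (95% exact interval 0.84 to 4.13), so a difference was not detectable at this depth.

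Erbb4, the other neuregulin receptor, was not among the 10 genes but completes the receptor group. Its level was 2.08, 2.34 and 2.16 FPKM in the PS libraries, 0.225, 0.165 and 0.182 in the ULA libraries and 0.462, 0.157 and 0.410 in the OPC libraries. As with its ligand Nrg1, PS was highest, and the ULA and OPC libraries overlapped. Erbb4 passed the filter only through the PS libraries. It fell by 1.42 on the log2 scale from PS to ULA (limma adjusted p = 4.7e-06) and fell by 1.26 from PS to OPC (limma adjusted p = 1.39e-05), and the difference between OPC and ULA was 0.17 (limma adjusted p = 0.282). Of the other ligands in the table, Egf was at 0.128 to 0.594 FPKM, Nrg4 at 0 to 0.430 and Nrg2 at 0 to 0.0246, all below the filter. The symbols Epgn and Nrg3 matched no gene measured, so they were not analysed here.

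Errfi1, also known as Mig6, encodes the inhibitor of the EGF receptor kinase and lies on chr5:167952728-167966009, plus strand. Its level was 35.6, 34.7 and 34.7 FPKM in the PS libraries, 53.5, 50.1 and 51.3 in the ULA libraries and 30.8, 27.4 and 29.3 in the OPC libraries. The groups did not overlap, with ULA highest and OPC lowest, the reverse of the order of Ereg. Errfi1 rose by 0.55 on the log2 scale from PS to ULA (SE 0.05, limma adjusted p = 3.67e-06), or 1.48-fold. From ULA to OPC it fell by 0.80 (SE 0.05, limma adjusted p = 9.49e-07), or 1.77-fold, and from PS to OPC it fell by 0.26 (limma adjusted p = 0.000843), or 1.20-fold. Each value rested on 1099 to 2611 reads.

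The promoter of Errfi1 is shown beside that of Areg because these were the 2 member promoters with the TATA box letters. It runs along chr5:166606691-166606840 of GRCr8, plus strand, and capitals mark the GC box at 72 to 67 bases before the start, the letters ACGTG read on the other strand at 53 to 49 and the TATA box at 35 to 30.
Errfi1: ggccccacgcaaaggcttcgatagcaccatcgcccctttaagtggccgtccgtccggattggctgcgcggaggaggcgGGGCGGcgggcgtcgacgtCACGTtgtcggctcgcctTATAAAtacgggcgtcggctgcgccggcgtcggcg
ACGTG is the core of the hypoxia response element, was in 16.6% of all promoters searched and was also in the Egfr promoter. GGAATG, the TEAD site letters, was in 12.1% of all promoters and in the Erbb2 promoter only among the members. Ereg, Nrg1 and Erbb3 had no RefSeq entry.

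Of the 8 members tested, 4 were higher and 2 lower in OPC than in ULA, beside 32.2% and 21.7% of all genes tested. In ULA vs PS 2 were higher and 4 lower, beside 38.4% and 30.5% of all genes, and in OPC vs PS 3 were higher and 4 lower, beside 40.4% and 23.9%. Areg is among the higher members in both comparisons of OPC. It could be tested only because it was high in the OPC libraries and ULA replicate 1. With a |log2FC| of at least 1 as well, the threshold of the study's methods, Ereg and Nrg1 passed in OPC vs ULA, where 4.33% of all genes did. Ereg, Hbegf, Tgfa and Nrg1 passed in ULA vs PS, beside 15.8% of all genes, and Hbegf, Tgfa and Nrg1 passed in OPC vs PS, beside 12.7%. The pseudocount of 1 kept Areg under this fold, and Areg passed as well in OPC vs ULA and in OPC vs PS with a pseudocount of 0.1 (log2FC 1.36 and 1.61, limma adjusted p = 0.0273 and 0.0101) and on the recovered reads, for 3 and 4 members. Of all genes called in OPC vs ULA, 59.8% were higher in OPC, and 49.8% were after upper-quartile rescaling of the libraries. Each group enters 2 of the 3 comparisons, so the comparisons are not independent of each other.

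**Figure D3:**
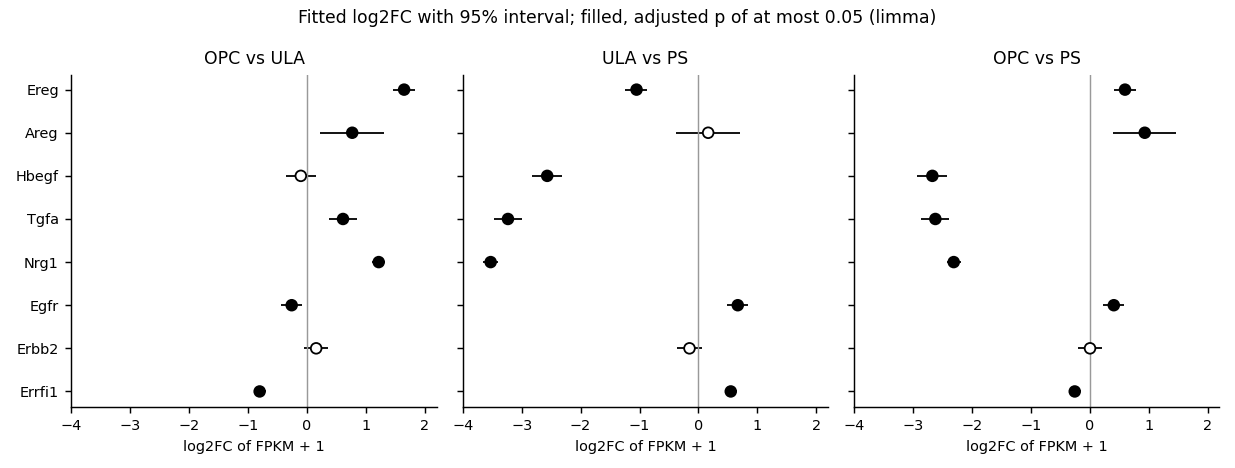
Points give the fitted log2FC of FPKM + 1 (horizontal axis) of the 8 members tested in the 3 comparisons, with lines for the 95% interval, filled where the limma adjusted p is at most 0.05. Ereg lies at 1.65 in OPC vs ULA and at -1.05 in ULA vs PS, whereas Hbegf, Tgfa and Nrg1 lie between -2.31 and -3.53 in both comparisons with PS.

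Among all genes tested, those most like Ereg over the 9 libraries were Fbln5, Chst2 and Slc1a3. Likeness was the root mean square difference of log2(FPKM + 1) after centring, which was 0.08 for Fbln5, 0.139 for Chst2 and 0.152 for Slc1a3. Fbln5 encodes fibulin-5, an elastic fibre protein, and its group means were 101.3 FPKM in PS, 43.7 in ULA and 147 in OPC. For Errfi1 they were AABR07036855.1, Fopnl and Fam110c, with differences of 0.072, 0.078 and 0.079. Fopnl was at a mean of 21.8 FPKM in PS, 34.2 in ULA and 19.3 in OPC.

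The genes around the family were described by lists, each with its median log2FC beside that of all genes tested, which was 0.059 for OPC vs ULA, 0.062 for ULA vs PS and 0.115 for OPC vs PS. The counts of list genes stand beside 32.2% higher and 21.7% lower of all genes in OPC vs ULA, 38.4% and 30.5% in ULA vs PS and 40.4% and 23.9% in OPC vs PS. Of 10 sheddases and their regulators, which release the ligands, 7 were higher and 2 lower in OPC than in ULA (median 0.26). In ULA vs PS 4 were higher and 5 lower (median -0.060), and in OPC vs PS 5 were higher and 3 lower (median 0.19). Adam17, in mouse cells the main sheddase of Tgfa, Areg, Ereg and Hbegf, was at 23.6 ± 1.32 FPKM in PS, 42.1 ± 1.36 in ULA and 46.9 ± 1.11 in OPC. It was lowest on PS, where its substrates Tgfa and Hbegf were highest, and highest on OPC, where its substrates Ereg and Areg were highest, and it rose by 0.81 on the log2 scale from PS to ULA (limma adjusted p = 2.26e-07) and by 0.96 from PS to OPC (limma adjusted p = 8.97e-08). Adam12, another metalloprotease that can cut HB-EGF, was at 134 ± 1.07, 40.2 ± 2.47 and 89.0 ± 3.35 FPKM in the same order, and Adam19 at 34.5 ± 0.600, 18.6 ± 0.303 and 29.4 ± 1.84. Timp3, the inhibitor of ADAM17, fell from 234 ± 6.99 FPKM in PS to 112 ± 4.90 in ULA and 66.6 ± 6.35 in OPC, with a log2FC of -0.75 from ULA to OPC (limma adjusted p = 1.09e-05) and of -1.80 from PS to OPC (limma adjusted p = 1.19e-08).

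Receptor adaptors, which link the receptors to RAS and other signals, were 3 higher and 2 lower of 9 in OPC vs ULA (median 0.17), 5 and 1 in ULA vs PS (median 0.28) and 6 and 1 in OPC vs PS (median 0.28). Shc1, an adaptor of the EGF receptor, rose from 78.5 ± 1.92 FPKM in PS to 110.3 ± 1.70 in ULA and 133 ± 5.34 in OPC. Its log2FC was 0.27 in OPC vs ULA (limma adjusted p = 0.000227) and 0.49 in ULA vs PS (limma adjusted p = 1.63e-06). Of 11 genes of the MAPK cascade, 3 were higher and 2 lower in OPC vs ULA (median 0.10), 2 and 6 in ULA vs PS (median -0.34) and 2 and 4 in OPC vs PS (median -0.059). Nras and Hras, which encode RAS proteins, fell by 0.42 and 0.81 on the log2 scale from PS to ULA (limma adjusted p = 2.31e-06 and 1.41e-05). Map2k1, a kinase of the cascade, rose there by 0.61 (limma adjusted p = 4.34e-07) and was lower in OPC than in ULA by a log2FC of -0.60 (limma adjusted p = 1.98e-06). Of 9 genes of PI3K and AKT signalling, 5 were higher and 2 lower in OPC vs ULA (median 0.16), 6 and 2 in ULA vs PS (median 0.28) and 5 and 2 in OPC vs PS (median 0.23). Pik3r1, a regulatory subunit of PI3K, was at 22.9 ± 0.334 FPKM in PS, 34.8 ± 0.729 in ULA and 43.9 ± 1.25 in OPC.

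Genes of receptor trafficking and degradation, 15 in all, were split, with 6 higher and 3 lower in OPC vs ULA (median 0.064), 5 and 5 in ULA vs PS (median 0.065) and 7 and 4 in OPC vs PS (median 0.13). Cblb, a ubiquitin ligase of the CBL family that acts on the EGF receptor, was at 9.94 ± 0.672 FPKM in PS, 28.5 ± 1.39 in ULA and 21.5 ± 0.170 in OPC. It followed the order of Egfr and rose by 1.43 on the log2 scale from PS to ULA (limma adjusted p = 1.22e-08). Ptpn1, a phosphatase of the receptor, was highest in OPC at 65.0 ± 3.55 FPKM, against 32.9 ± 1.59 in PS and 38.3 ± 2.91 in ULA. Lrig1, which lowers ErbB receptor levels, was highest in PS at 18.2 ± 1.37 FPKM, against 8.77 ± 0.327 in ULA and 13.0 ± 0.714 in OPC.

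Feedback inhibitors of the ERK pathway other than Errfi1 differed in where they were highest. Of 10 genes, 4 were higher and 2 lower in OPC vs ULA (median 0.21), 4 and 4 in ULA vs PS (median 0.00068, or -0.060 without ULA replicate 1) and 4 and 4 in OPC vs PS (median 0.14). Spry1 and Spry2, the Sprouty inhibitors of receptor signalling, were highest in PS as were Tgfa, Hbegf and Nrg1. Spry1 was at 9.21 ± 0.844 FPKM in PS, 0.553 ± 0.146 in ULA and 0.874 ± 0.127 in OPC and fell by 2.72 on the log2 scale from PS to ULA (limma adjusted p = 1.58e-08). It passed the filter through the 3 PS libraries, where it was high, and OPC replicate 3 (1.01 FPKM). Spry2 was at 36.02 ± 1.07, 12.3 ± 0.922 and 17.9 ± 1.14 FPKM and fell there by 1.48 (limma adjusted p = 2.6e-08). Dusp5, a nuclear ERK phosphatase, was highest in ULA as Errfi1 was, at 23.0 ± 3.04 FPKM against 7.29 ± 1.04 in PS and 12.3 ± 0.831 in OPC. Dusp1, a phosphatase of ERK and related kinases, was at 318, 114 and 337 FPKM in the ULA libraries, against means of 335 in PS and 170.4 in OPC. Without ULA replicate 2 the list held 4 higher and 4 lower genes in OPC vs ULA. It then held 5 and 3 in ULA vs PS and 5 and 4 in OPC vs PS. Dusp4, another nuclear phosphatase, was at 10.7 ± 0.352, 5.35 ± 0.576 and 2.29 ± 0.200 FPKM in PS, ULA and OPC.

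Early genes that ERK induces were 3 higher and 5 lower of 12 in OPC vs ULA (median -0.28), 3 and 3 in ULA vs PS (median -0.13) and 4 and 6 in OPC vs PS (median -0.46). ULA replicate 2 stood apart in several of these genes. Fos, a part of the AP-1 factor, was at 540.2, 160.1 and 591.8 FPKM in the ULA libraries, against 547 to 552 in PS and 305 to 334 in OPC, and Fosb was at 169, 49.9 and 229 FPKM in the ULA libraries. Neither differed past the threshold between ULA and another group (limma adjusted p from 0.0552 to 0.676). In OPC vs PS, Fosb was lower (log2FC -1.38, limma adjusted p = 0.0219) and Fos did not pass (log2FC -0.78, limma adjusted p = 0.117). The 3 groups share 1 estimate of the spread, so ULA replicate 2 also enters that comparison. Without ULA replicate 2, an alternative chosen after seeing the data, 3 early genes were higher and 9 lower in OPC vs ULA (median -0.41). The counts were then 3 and 4 in ULA vs PS (median 0.043) and 4 and 8 in OPC vs PS (median -0.46). Myc, a growth regulator, fell from 42.5 ± 1.6 FPKM in PS to 15.4 ± 1.11 in ULA and 11.5 ± 0.929 in OPC, with a log2FC of -1.80 from PS to OPC (limma adjusted p = 1.77e-08). Phlda1 was at 122 ± 3.51, 58.5 ± 1.76 and 70.6 ± 3.01 FPKM, also highest in PS. Ier3, an early response gene linked to cell survival, was highest in ULA, at 557 ± 50.7 FPKM against 208 ± 3.15 in PS and 413 ± 13.2 in OPC. Egr2, a zinc finger factor, was at 25.3 ± 1.02, 46.2 ± 7.70 and 17.8 ± 2.01 FPKM and was lower in OPC than in ULA by a log2FC of -1.32 (limma adjusted p = 1.6e-05). The group means of Phlda1 thus had the order of those of Tgfa, and the means of Egr2 that of Errfi1.

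**Figure D4:**
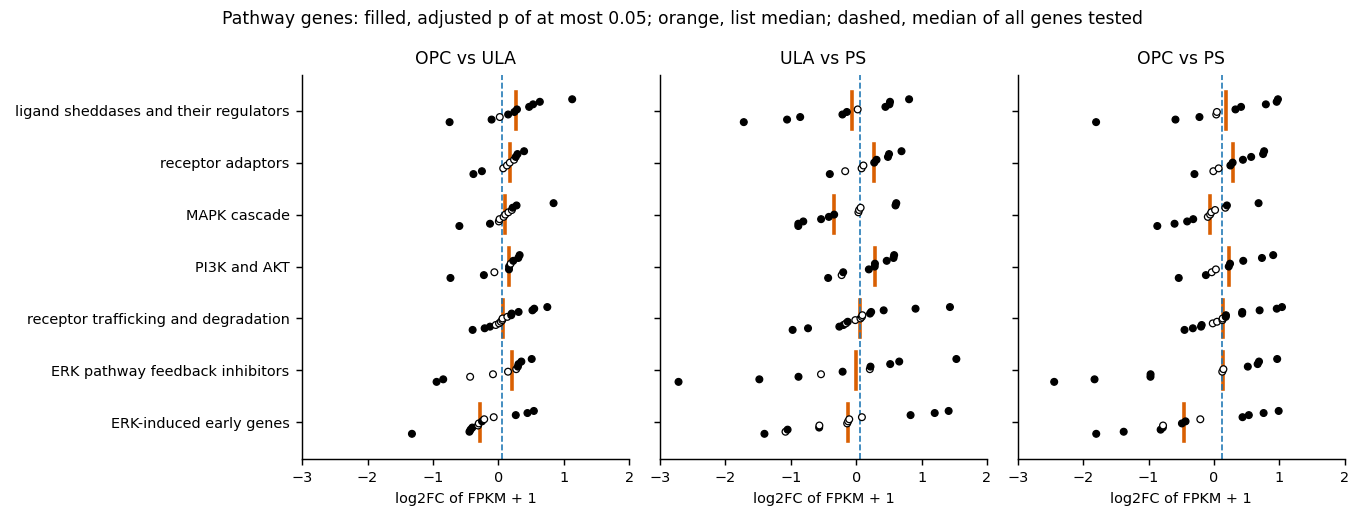
Each point is the log2FC of FPKM + 1 of 1 gene of the 7 pathway lists in the 3 comparisons, filled where the limma adjusted p is at most 0.05, with the median of each list in orange and that of all genes tested as a dashed line. Most list medians lie near the dashed line, and the ERK-induced early genes (-0.46 in OPC vs PS) and the MAPK cascade (-0.34 in ULA vs PS) lie farthest to the left of it.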

How the data were processed

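The table deposited by the authors gives 19919 genes in 9 libraries, and its values were read as FPKM from their steps, since the unit is not named. The submitters' processing notes name HISAT2 2.1, StringTie 1.3.0 and rn6, whereas the paper's methods name HISAT2, featureCounts and DESeq2, and the sources used here do not state which tool made the FPKM values deposited by the authors. The labels name Trizol for RNA extraction and the methods name a kit. Whole reads were recovered for 12467 of the 12513 genes tested (99.6%, all 9 values within 0.05 of a whole number), with depth taken from 467 noncoding RNA genes of 1 exon. Depth was 14660000 to 17220000 reads in the PS libraries, 12740000 to 16380000 in the ULA libraries and 13460000 to 17090000 in the OPC libraries.

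Genes with at least 1 FPKM in at least 3 libraries were fitted as log2(FPKM + 1) in R 4.3.3 by limma 3.58.1 (moderated with a trend, 3 groups in 1 fit, two-sided, Benjamini-Hochberg adjustment, threshold 0.05), after the script was tested on simulated data. Fold changes on this scale understate changes of low genes. Alternatives were other pseudocounts (0.1 and 0.01), no filter, a filter of 5 FPKM, no trend, upper-quartile rescaling, the 2 compared groups alone, the replicate number as a block, each library left out, an unadjusted p and, chosen after seeing the data, limma-voom on the recovered reads. Members and lists were chosen with earlier results of these data known. All members are named, with up to 2 genes of each pathway list per direction and comparison by smallest adjusted p (some are not reported here), and the 3 genes most like Ereg and Errfi1. Promoter sequences are from RefSeq (GRCr8), where 7 of 10 members matched, and their coordinates are not comparable with rn6. The text says nothing of protein levels or receptor activity, which were not measured in these files.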

Additional observations from a re-analysis of the deposited data

How the results depend on the processing

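Of 426 recomputed member differences, 413 kept their direction and their side of the threshold, 7 lost the call (4 of Areg and 3 of Egfr, all in OPC vs ULA with 1 library left out), 1 gained it (Hbegf in OPC vs ULA) and 5 changed sign. Another filter, no trend, the compared groups alone, the replicate block or a library left out of the uncompared group do not alter the log2FC. In those settings only the call could change. With each library left out in turn, Areg in ULA vs PS ranged from -0.14 to 0.32 and Erbb2 in OPC vs PS from -0.033 to 0.057, and upper-quartile rescaling put Erbb2 there at -0.051 (limma adjusted p = 0.645). None of the values that changed sign was past the threshold, and the cause was not tested. The 171 recomputed counts of members and genes were all within 1.5 times their value. For the small counts of members this limit is wide. Members called in OPC vs ULA went from 6 to 4 without ULA replicate 2 or without OPC replicate 1. Limma-voom on the recovered reads called 6819 genes in OPC vs ULA (6751 before), 8603 in ULA vs PS (8627 before) and 8112 in OPC vs PS (8053 before). Libraries with the same replicate number did not deviate together (correlations of -0.039 to 0.054). A replicate block called 6540, 8540 and 7957 genes in the same order and changed no member's call. In the pathway lists, counts of 2 or 3 lower genes in OPC vs ULA (sheddases, adaptors, MAPK cascade and trafficking) and of 2 higher MAPK genes in OPC vs PS went to 1 with some libraries left out. At the level of Areg, Btc and Erbb3, few reads limit what can be seen.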

Other observations

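Areg and Ereg lie 45.2 kb apart on rat chromosome 14, beside a cluster of CXC chemokine genes, and this neighbourhood was looked at after its values were seen. Within 300 kb of Ereg the table held 11 genes, of which 7 were tested. All 7 (Areg, Ereg, Mthfd2l, Cxcl2, Cxcl1, Cxcl3 and Cxcl6) were higher in OPC than in ULA and than in PS by limma. Of all genes tested, 32.2% were higher in OPC than in ULA and 40.4% than in PS. The window was centred on Ereg, and Areg passed the filter only through the OPC libraries and ULA replicate 1. Cxcl2, at means of 0.223 FPKM in PS, 2.24 in ULA and 3.51 in OPC, passed it only through ULA and OPC libraries. The count of 7 is therefore a description, and the call of Areg against ULA was lost without some libraries as given above. Cxcl1, a chemokine that draws neutrophils, had mean levels of 562 FPKM in PS, 726 in ULA and 2047 in OPC, with a log2FC of 1.498 from ULA to OPC (SE 0.06, limma adjusted p = 7.48e-08). Cxcl3 was at 9.81, 65.9 and 307 FPKM and Cxcl6 at 18.1, 122 and 539. Mthfd2l, a mitochondrial folate enzyme that lies between Ereg and the chemokines, was at 1.72, 2.12 and 4.74 FPKM. Between PS and ULA the genes did not move together, since 4 of the 7 were higher in ULA and Ereg was lower. Btc, which ends 249.4 kb before Areg, lay just outside the window and did not pass the filter. Its mean was lower in OPC (0.0760 FPKM) than in PS (0.454 FPKM), unlike the 7 genes. The chemokine genes are close paralogs, so reads may be shared between them.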
